A study of Mus musculus with 8 samples.

Results

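The genes described here are 38 mouse genes of glycolysis and of the response to low oxygen, 38 of the 22922 targets (genes, or probes without a gene symbol) that were tested on the arrays. They were taken from a list of gene symbols and matched to probes through the RefSeq accession of each probe. They are 3 glucose and lactate transporters, 16 glycolytic enzymes, 3 regulators of glycolytic flux, 3 mitophagy and stress genes, 2 oxygen sensors, 2 collagen prolyl hydroxylases, 7 other hypoxia response genes and 2 HIF alpha subunits. All 38 had a probe well above background on all 8 arrays, so the filter on dim probes removed none of them.

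RNA was measured on 1-colour arrays in mouse embryonic fibroblasts (MEFs), cells grown from mouse embryos, of 2 lines. One is Keap1-/- TR, called Keap1 null here, and the other is WT-TR, called WT. Each line was grown in a dish (2D) and as an allograft (3D), a tumour formed by cells injected into nude (nu/nu) mice. The 4 groups, with 2 arrays each, are Keap1 null allografts, WT allografts, Keap1 null dishes and WT dishes. Keap1 null allografts came from 3000000 injected cells and WT allografts from 10000000, and tumours of both lines were taken at 100 to 150 mm3. Both lines carry TR, which the labels do not spell out. Each genotype is 1 line, so genotype and line cannot be told apart. In allografts, genotype and the number of injected cells cannot be told apart either. Nude mice lack a working thymus but keep macrophages, neutrophils, vessels and other host cells, and the RNA of a tumour includes theirs. The labels do not say whether the 2 arrays of a group come from separate cultures or animals, so p-values measure the spread between arrays, which may be technical.

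Glycolysis turns glucose into pyruvate in the cytosol, and lactate dehydrogenase can then turn pyruvate into lactate, which leaves the cell through monocarboxylate transporters. Many genes of this pathway are targets of the hypoxia-inducible factors (HIF), whose alpha subunits are hydroxylated by oxygen-dependent prolyl hydroxylases and then degraded, so that they accumulate where oxygen is low. HIF binds DNA at a short core sequence, and solid tumours with poor blood supply are a well-known setting of this response. KEAP1 is the adaptor of a ubiquitin ligase that keeps NRF2, a transcription factor made from Nfe2l2, at a low level.

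The promoters of 5 genes are shown as examples, and all 5 held the core letters marked below. Of these, Slc16a3, Ldha, Bnip3 and Ankrd37 were among the genes highest in Keap1 null allografts, while Egln3 ran the other way. Each line gives the 250 bases before the RefSeq start of the gene on assembly GRCm38.p6, read 5′ to 3′ on the gene's strand, with the core letters ACGTG, on either strand, in capitals.
Slc16a3, chr11:120948817-120949066, plus strand: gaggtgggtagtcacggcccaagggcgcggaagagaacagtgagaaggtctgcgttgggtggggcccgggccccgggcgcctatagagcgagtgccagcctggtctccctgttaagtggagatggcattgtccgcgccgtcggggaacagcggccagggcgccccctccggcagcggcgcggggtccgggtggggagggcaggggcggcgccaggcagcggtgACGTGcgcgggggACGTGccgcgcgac
Ldha, chr7:46845554-46845803, plus strand: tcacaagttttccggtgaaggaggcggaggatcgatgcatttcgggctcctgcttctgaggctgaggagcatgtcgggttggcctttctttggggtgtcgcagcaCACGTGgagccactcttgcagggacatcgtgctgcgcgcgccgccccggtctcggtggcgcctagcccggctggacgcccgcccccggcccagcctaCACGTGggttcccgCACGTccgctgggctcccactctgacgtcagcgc
Bnip3, chr7:138909507-138909756, minus strand: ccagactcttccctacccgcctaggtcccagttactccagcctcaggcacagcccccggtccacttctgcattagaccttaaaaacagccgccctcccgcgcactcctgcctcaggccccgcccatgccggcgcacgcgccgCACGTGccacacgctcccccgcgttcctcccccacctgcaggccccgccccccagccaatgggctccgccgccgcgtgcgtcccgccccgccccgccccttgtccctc
Ankrd37, chr8:45999851-46000100, minus strand: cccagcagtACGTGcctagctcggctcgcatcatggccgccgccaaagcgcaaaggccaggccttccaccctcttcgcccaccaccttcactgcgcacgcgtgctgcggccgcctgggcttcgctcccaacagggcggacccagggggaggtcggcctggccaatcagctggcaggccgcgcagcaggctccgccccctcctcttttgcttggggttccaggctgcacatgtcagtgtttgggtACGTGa
Egln3, chr12:54203875-54204124, minus strand: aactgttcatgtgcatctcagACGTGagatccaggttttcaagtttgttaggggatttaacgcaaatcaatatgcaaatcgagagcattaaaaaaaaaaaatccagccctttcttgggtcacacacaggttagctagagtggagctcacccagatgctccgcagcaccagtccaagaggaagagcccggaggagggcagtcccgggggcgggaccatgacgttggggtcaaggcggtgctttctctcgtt

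The Ldha window shown held 5 matches, counted on both strands. The windows of Slc16a3, Bnip3 and Ankrd37 held 2 each, and that of Egln3 held 1. A CACGTG in capitals is an E-box that reads the same on both strands and counts as 2 matches. The Ldha window shown thus held 2 E-boxes and that of Bnip3 held 1. The other Ldha window held neither ACGTG nor an E-box. Gpi1, Pfkp, Eno2, Pdk1, Stc2 and Kdm3a, also highest in Keap1 null allografts, held no ACGTG in any window. RefSeq windows were at hand for 33 of the 38 genes, and 20 of these 33 (60.6%) held ACGTG in at least 1 window, against 4998 of 27025 genes (18.5%) in the whole table. By window, the shares were 24 of 50 (48%) and 16.6%. With GCGTG, the other common form of the core, also allowed, the shares by gene were 30 of 33 (90.9%) and 41.5%. The genes were listed for glycolysis and the response to low oxygen, of which many are known HIF targets. These shares therefore cannot test a link to HIF. The antioxidant response element TGACNNNGC, the form of site that NRF2 binds, was present in 4 of 33 genes (12.1%), which were Hk1, Aldoa, P4ha1 and Mxi1, against 11.5% of all genes. Among the 22 genes with a window that were higher in Keap1 null allografts than in WT allografts, 12 (54.5%) held ACGTG, against 7 of the 8 (87.5%) that were not called in that comparison. These are counts of letters in a window, and binding was not measured.

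Levels below are the log2 of the processed intensity relative to the 75th percentile of the same array, so that 0 is the intensity of that percentile and 1 unit is a doubling. A level of 1 gene cannot be set against the level of another, because probes differ in brightness. The share of probes well above background was 69.7% to 74.7% on allograft arrays and 60.6% to 64.5% on dish arrays. The 75th percentile was an intensity of 1084 to 1546, and none of the spots was saturated. The choice of scale matters for the split of calls. Of all targets called between the lines in allografts, 49% were higher in Keap1 null at the 75th percentile and 30.5% with no scaling. In dishes the share was 53.7%, but 37.3% at the array median and 76.4% with no scaling. Of those called between allograft and dish, 55.2% were higher in allografts of the Keap1 null line, but 27.3% at the array median, and 52.7% in the WT line, but 25.9% at the array median and 78.5% with no scaling. Of the called interactions 48.2% were positive, but 23.3% with no scaling. Keap1 measured 1.00 and 0.92 in Keap1 null allografts against 2.85 and 2.46 in WT allografts, while dishes gave 2.37 and 2.22 for Keap1 null cells against 3.32 and 2.99 for WT cells. It was lower in the Keap1 null line in both settings, although where its probe lies relative to the deleted part is not given. Nfe2l2 was higher in Keap1 null than in WT allografts by 0.60 ± 0.10 (SE; limma adjusted p = 0.00529) and was not called between the dishes. The 2 replicate numbers are also 2 slides, each with 1 array of every group.

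**Figure D1:**
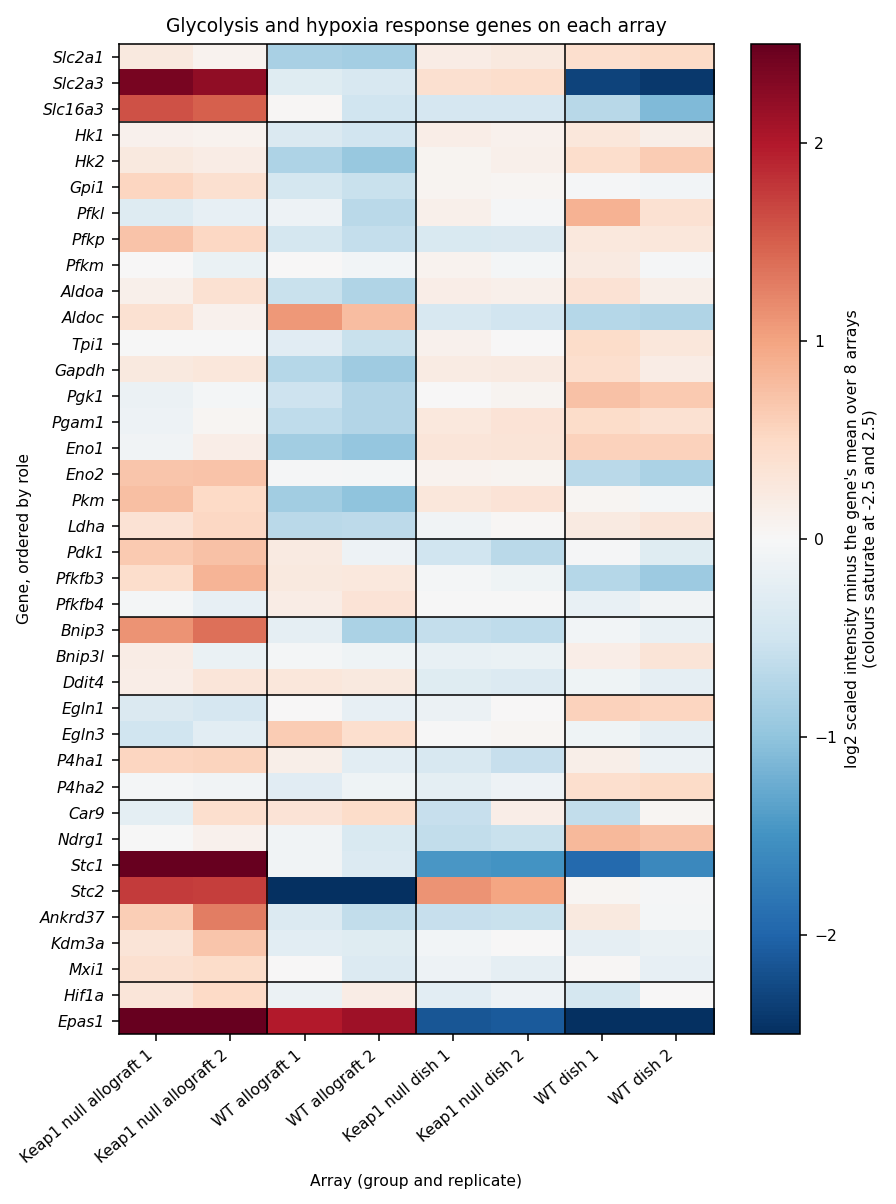
Level of each of the 38 genes on each of the 8 arrays, as the log2 scaled intensity minus the mean of that gene over all arrays (red above, blue below, colours saturating at -2.5 and 2.5). Rows are genes grouped by role and columns are arrays; the upper rows, transporters and glycolytic enzymes, are mostly blue in the 2 WT allograft columns.

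In allografts, genes of glucose uptake, glycolysis and lactate export were mostly higher in Keap1 null than in WT tumours. Of the 38 genes, 25 were higher, 3 were lower and 10 were not called, by limma at an adjusted p below 0.05 over all 22922 targets. Among all targets, 41.8% were called, 20.5% higher and 21.3% lower. The median log2 fold change was 0.64 over the 38 genes and 0.0042 over all targets. The median over the 38 genes was 0.49 on slide 1 and 0.79 on slide 2. An exact permutation test of 2 arrays against 2 cannot go below 0.33, so single genes rest on the limma fit.

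All 3 transporters were higher in Keap1 null allografts. Slc2a1, the glucose transporter GLUT1, measured 4.18 and 4.02 in Keap1 null allografts against 3.12 and 3.09 in WT allografts, while dishes gave 4.13 and 4.18 for Keap1 null cells against 4.36 and 4.41 for WT cells. The WT allograft arrays were the low ones, and the other 6 arrays lay close together. The difference in allografts was 0.99 ± 0.093 (SE; limma adjusted p = 0.000499). Slc2a3, the glucose transporter GLUT3, measured 0.55 and 0.38 in Keap1 null allografts against -2.13 and -2.24 in WT allografts, while dishes gave -1.43 and -1.40 for Keap1 null cells against -4.15 and -4.24 for WT cells. It separated the lines by almost the same amount in both settings, 2.65 ± 0.10 in allografts and 2.78 ± 0.10 in dishes (SE; limma adjusted p = 2.35e-05 and 5.08e-05). Slc16a3, the lactate exporter MCT4, measured 5.14 and 5.04 in Keap1 null allografts against 3.59 and 3.06 in WT allografts. Its dish levels were lower, at 3.14 and 3.14 in Keap1 null dishes against 2.85 and 2.45 in WT dishes. Both Keap1 null allograft arrays stood above the other 6, and the difference from WT allografts was 3.40-fold (1.76 ± 0.21 on the log2 scale, SE; limma adjusted p = 0.00134).

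Of the 16 glycolytic enzymes, 13 were higher in Keap1 null allografts, Aldoc was lower, and Pfkl and Pfkm were not called. The median over the 16 was 0.83. Hexokinase phosphorylates glucose as it enters the cell. Hk2, its inducible form, measured 3.32 and 3.26 in Keap1 null allografts against 2.32 and 2.14 in WT allografts, while dishes gave 3.16 and 3.22 for Keap1 null cells against 3.53 and 3.71 for WT cells. The WT line thus had the highest Hk2 arrays in dishes and the lowest in allografts, and the allograft difference was 1.06 ± 0.11 (SE; limma adjusted p = 0.000734). Phosphofructokinase makes the committed step of the pathway and has a liver, a muscle and a platelet form. Pfkp, the platelet form, measured 1.27 and 1.09 in Keap1 null allografts against 0.12 and -0.026 in WT allografts, while dishes gave 0.17 and 0.21 for Keap1 null cells against 0.82 and 0.84 for WT cells. It was 2.19-fold higher in Keap1 null allografts (1.13 ± 0.10 on the log2 scale, SE; limma adjusted p = 0.000461), while a second probe of Pfkp gave 0.33 (adjusted p = 0.251). The muscle form Pfkm lay between 2.24 and 2.62 on all 8 arrays and the liver form Pfkl differed by 0.14 ± 0.23 (SE).

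Enzymes of the later steps were higher too. Gapdh, which takes the first oxidative step, measured 6.55 and 6.58 in Keap1 null allografts against 5.58 and 5.42 in WT allografts, while dishes gave 6.50 and 6.53 for Keap1 null cells against 6.73 and 6.49 for WT cells. Its WT allograft arrays were the only low ones, and the allograft difference was 1.07 ± 0.11 (SE; limma adjusted p = 0.000858). Pkm, pyruvate kinase, which makes pyruvate, measured 6.34 and 6.10 in Keap1 null allografts against 4.73 and 4.59 in WT allografts. In dishes it measured 5.87 and 5.94 in Keap1 null cells against 5.64 and 5.54 in WT cells. At 2.94-fold (1.56 ± 0.12 on the log2 scale, SE; limma adjusted p = 0.000221) it had the largest difference of the 16 enzymes. Ldha, which turns pyruvate into lactate, measured 7.35 and 7.51 in Keap1 null allografts against 6.31 and 6.34 in WT allografts. Dishes gave 6.90 and 7.03 for Keap1 null cells against 7.21 and 7.30 for WT cells. Both Keap1 null allograft arrays exceeded the other 6, and the allograft difference was 1.10 ± 0.10 (SE; limma adjusted p = 0.000446). The other enzymes that were higher in Keap1 null allografts were Gpi1, Eno1, Aldoa, Eno2, Pgam1, Pgk1, Hk1 and Tpi1. Their log2 differences ran from 0.97 for Gpi1 down to 0.41 for Tpi1. Other tested probes of Hk1 gave smaller differences of 0.27 to 0.36, with limma adjusted p of 0.0494 to 0.155. Aldoc, an aldolase best known from the brain, fell by 0.68 (SE 0.14; limma adjusted p = 0.0124).

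Regulators of flux did not share 1 direction. Pdk1, the kinase that switches off pyruvate dehydrogenase, measured 0.29 and 0.37 in Keap1 null allografts against -0.14 and -0.49 in WT allografts, while dishes gave -0.86 and -1.03 for Keap1 null cells against -0.40 and -0.66 for WT cells. Its means in dishes had the opposite order, but that difference was not called at the probe used (limma adjusted p = 0.13). In allografts Pdk1 was higher in Keap1 null by 0.64 ± 0.16 (SE; limma adjusted p = 0.022). Pfkfb4, which sets the level of the bisphosphate that activates phosphofructokinase, fell by 0.38 (SE 0.10; limma adjusted p = 0.0275), and its relative Pfkfb3 differed by 0.39 ± 0.16 without a call (limma adjusted p = 0.0951).

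Bnip3, a receptor that marks mitochondria for removal, measured 2.88 and 3.13 in Keap1 null allografts against 1.53 and 0.97 in WT allografts. In dishes it measured 1.15 and 1.12 in Keap1 null cells against 1.68 and 1.56 in WT cells. Both Keap1 null allograft arrays stood more than 1 unit above every other array, and the allograft difference was 3.37-fold (1.75 ± 0.20 on the log2 scale, SE; limma adjusted p = 0.00109). Its relative Bnip3l differed by 0.09 ± 0.13 and Ddit4, an inhibitor of mTOR signalling, by -0.03 ± 0.093 (SE), and neither was called.

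Of the 2 oxygen sensors 1 was lower and 1 was not called. Egln3, a prolyl hydroxylase of HIF alpha and itself a known HIF target, measured 0.0031 and 0.22 in Keap1 null allografts against 1.14 and 0.91 in WT allografts, while dishes gave 0.49 and 0.54 for Keap1 null cells against 0.39 and 0.27 for WT cells. The Keap1 null allograft arrays were the lowest of the 8 and the WT allograft arrays the highest. Egln3 was 1.88-fold lower in Keap1 null allografts (-0.91 ± 0.13 on the log2 scale, SE; limma adjusted p = 0.00242). Egln1, the main prolyl hydroxylase of HIF alpha in most cells, had a difference of -0.29 ± 0.11 (SE), which was not called (limma adjusted p = 0.0932).

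The 2 catalytic subunits of collagen prolyl hydroxylase, which modifies collagen chains in the endoplasmic reticulum, had 1 call. P4ha1 measured 1.62 and 1.65 in Keap1 null allografts against 1.23 and 0.81 in WT allografts, while dishes gave 0.69 and 0.50 for Keap1 null cells against 1.24 and 0.94 for WT cells. The means of the lines changed order between the settings, but the dish difference was not called at the probe used (limma adjusted p = 0.113). The allograft difference was 0.61 ± 0.18 (SE; limma adjusted p = 0.0369). P4ha2 differed by 0.13 ± 0.10 (SE) in allografts and was not called.

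Among the other hypoxia response genes, 5 of 7 were higher in Keap1 null allografts and 2, Ndrg1 and Car9, were not called. Stc2, a secreted stanniocalcin, measured 0.89 and 0.88 in Keap1 null allografts against -3.53 and -3.79 in WT allografts, while dishes gave 0.27 and 0.14 for Keap1 null cells against -0.80 and -0.89 for WT cells. The WT allograft arrays lay more than 2 units below all others. At 23.3-fold (4.54 ± 0.12 on the log2 scale, SE; limma adjusted p = 9.38e-06) this was the largest allograft difference of the 38 genes. Stc1, the other stanniocalcin, measured 3.96 and 3.89 in Keap1 null allografts against 0.37 and 0.11 in WT allografts, while dishes gave -0.996 and -1.03 for Keap1 null cells against -1.49 and -1.15 for WT cells. Here the Keap1 null allograft arrays were the ones that stood apart, above all others, at 12.9-fold over WT allografts (3.69 ± 0.15 on the log2 scale, SE; limma adjusted p = 2.82e-05). Ankrd37, an ankyrin repeat protein known as a HIF target, measured 0.87 and 1.52 in Keap1 null allografts against -0.10 and -0.38 in WT allografts. In dishes it measured -0.33 and -0.31 in Keap1 null cells against 0.49 and 0.19 in WT cells. Its 2 Keap1 null allograft arrays differed from each other by more than those of any other gene of the 38 except Car9, and the allograft difference was 1.43 ± 0.24 (SE; limma adjusted p = 0.005). Kdm3a, a histone demethylase, and Mxi1, a MYC antagonist, were higher by 0.79 ± 0.13 and 0.59 ± 0.15 (SE; limma adjusted p = 0.00514 and 0.0224).

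Ndrg1, a stress-induced gene, measured 3.08 and 3.21 in Keap1 null allografts against 3.00 and 2.72 in WT allografts, while dishes gave 2.49 and 2.55 for Keap1 null cells against 3.90 and 3.83 for WT cells. The lines were close in tumours and far apart in dishes. Car9, the membrane carbonic anhydrase often used as a marker of hypoxia, was dim, with -3.82 and -3.16 in Keap1 null allografts against -3.24 and -3.13 in WT allografts, while dishes gave -4.17 and -3.42 for Keap1 null cells against -4.21 and -3.54 for WT cells. Its groups overlapped in both genotype comparisons.

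Of the HIF alpha subunits, Epas1, which encodes HIF-2 alpha and is well known from endothelium, measured 3.41 and 3.49 in Keap1 null allografts against 2.74 and 2.89 in WT allografts, while dishes gave -1.38 and -1.33 for Keap1 null cells against -1.94 and -1.76 for WT cells. It was higher in Keap1 null allografts by 0.63 ± 0.11 (SE; limma adjusted p = 0.00536). Hif1a measured 2.04 and 2.23 in Keap1 null allografts against 1.58 and 1.91 in WT allografts and was not called (difference 0.39 ± 0.19, SE, limma adjusted p = 0.165), although with the slide as a block its adjusted p was 0.0322.

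Of the 25 higher and 3 lower calls, 16 and 1 held in all 16 alternatives, the 1 being Egln3, and the unscaled table gave 16 higher. Leaving out 1 array ended 7 calls, namely Tpi1 (7 of the 8 arrays), P4ha1 and Pfkfb4 (5 each), Pdk1 and Mxi1 (3 each, Keap1 null allograft arrays 1 and 2 and WT allograft array 2), Aldoc (Keap1 null allograft array 2, -0.54, and WT allograft array 1, -0.53) and Pgk1 (WT allograft array 2, 0.42), and 1 lower call, Egln3, was left without either of the arrays named for Aldoc.

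**Figure D2:**
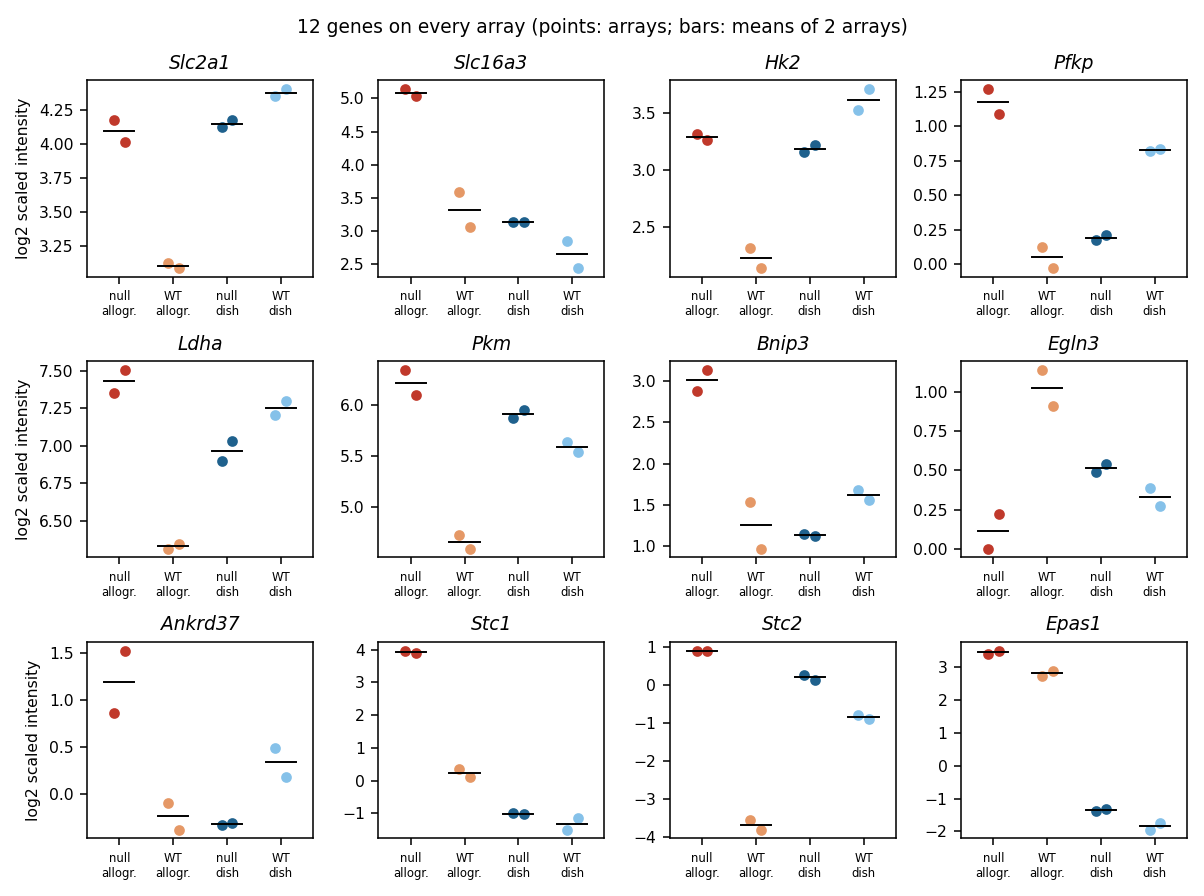
Level of 12 genes on every array (points; log2 scaled intensity, each panel with its own axis) with the mean of the 2 arrays of a group (bars), for Keap1 null (null) and WT allografts and Keap1 null and WT dishes. In Bnip3, Stc1 and Slc16a3 the Keap1 null allografts stand above the rest, in Stc2 and Hk2 the WT allografts lie below the rest, and in Egln3 the Keap1 null allografts are lowest.

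Between the dishes, Slc2a3 and Stc2 were the genes with the largest rises in Keap1 null cells and Ndrg1 the one with the largest fall. Of the 38 genes, 5 were higher in Keap1 null cells, 6 were lower and 27 were not called (limma, adjusted p below 0.05). Over all targets 21.1% were called, 11.4% higher and 9.78% lower. The median over the 38 genes was -0.10, and over all targets it was -0.05. The members' median was -0.20 without the second WT array from dishes and -0.015 with quantile normalization. Those higher in Keap1 null dishes were Slc2a3 (2.78), Stc2 (1.05 ± 0.12), Eno2, a neuronal enolase (0.80 ± 0.087), Pfkfb3 (0.73 ± 0.16) and Epas1 (0.49 ± 0.11), with SE. Those lower were Ndrg1, at 2.54-fold (-1.35 ± 0.12 on the log2 scale), Pgk1 (-0.64 ± 0.11), Pfkp (-0.64 ± 0.10), P4ha2 (-0.64 ± 0.10), Egln1 (-0.62 ± 0.11) and Hk2 (-0.43 ± 0.11), with SE. Hk2, Pfkp and Pgk1 were lower in the Keap1 null line in dishes and higher in allografts, but the dish call of Hk2 ended whichever of the 8 arrays was left out (limma adjusted p = 0.0555 to 0.198), and those of Pfkp and Pgk1 ended without any of 3 arrays from dishes (0.0504 to 0.0704 for Pfkp and 0.0616 to 0.0776 for Pgk1). Slc2a3, Eno2, Stc2 and Epas1 were higher in both settings. The remaining 18 higher and 3 lower genes of the allograft comparison were not called in dishes at the probe used. Both other Stc1 probes were called higher in Keap1 null dishes (0.755 and 0.508, limma adjusted p = 0.017 and 0.0184). Second probes of P4ha1 (-0.53) and Pdk1 (-0.55) were called lower there (limma adjusted p = 0.0145 and 0.0476). The second probe of Pfkp gave -0.20 in dishes and was not called (limma adjusted p = 0.568). The median over the 38 genes was -0.19 on slide 1 and -0.04 on slide 2.

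Slc2a3, Eno2, Stc2 and Ndrg1 held their dish calls in all 16 alternatives. Leaving out the first Keap1 null array from dishes left 1 lower call, leaving out the second or the first WT array left 2, and each of these 3 omissions left 3 higher calls. Calls of Pfkfb3, Epas1, Egln1 and P4ha2 were among those lost, and with no scaling 1 lower call remained.

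**Figure D3:**
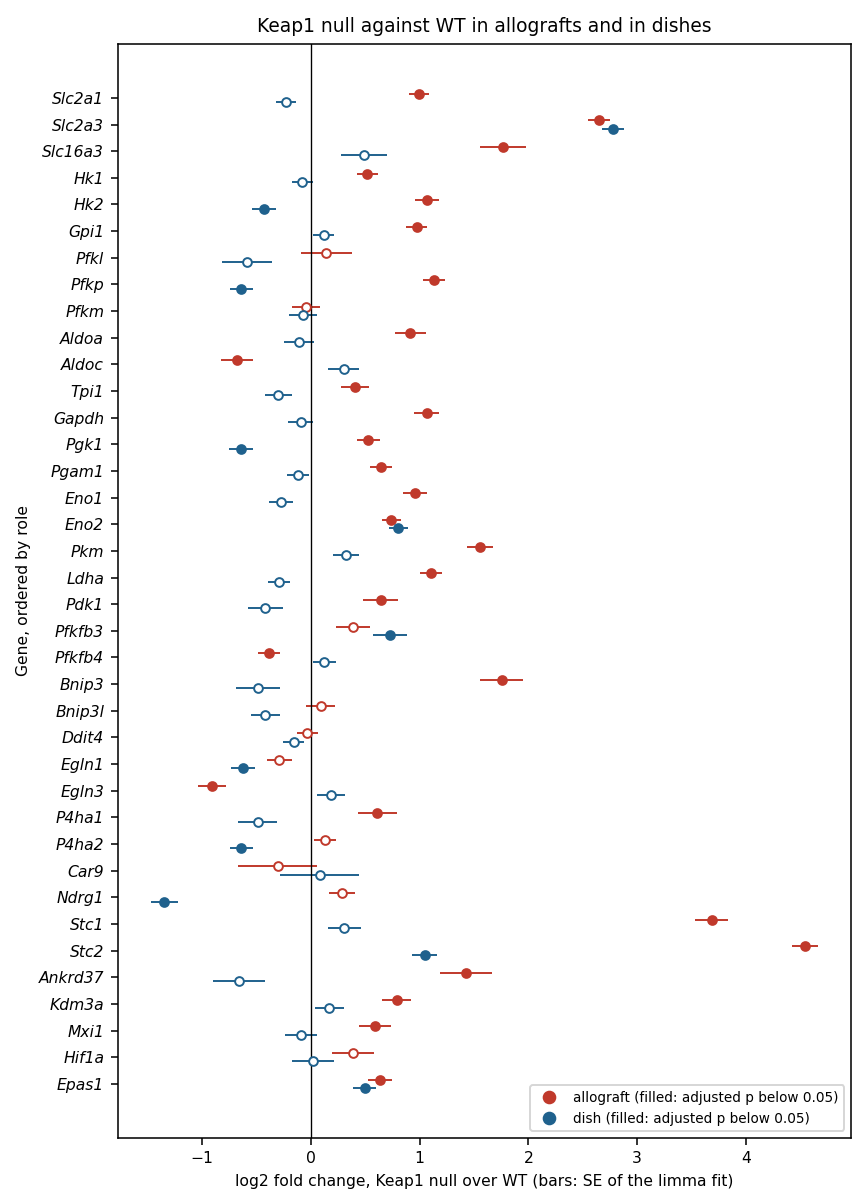
Log2 fold change, Keap1 null over WT, of each of the 38 genes in allografts (red) and in dishes (blue), with the SE of the limma fit as bars and filled points where the adjusted p was below 0.05. In allografts 25 filled points lie right of 0 and 3 left of it; in dishes 5 lie right and 6 left.

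The change with growth setting, allograft against dish, differed in kind between the lines. In the Keap1 null line 20 of the 38 genes were higher in allografts than in dishes, 2 were lower and 16 were not called, with a median of 0.44. In the WT line 10 were higher, 18 lower and 10 not called, with a median of -0.41. These comparisons moved much of the transcriptome: in Keap1 null 64.9% of all targets were called, 35.8% higher and 29.1% lower, and in WT 68.1%, 35.8% higher and 32.2% lower, with medians of 0.03 and -0.02. Directions in these 2 comparisons depend on the scale. Taking the array's median as the scale moved all targets by -0.87 in Keap1 null and -1.02 in WT and turned the sign of 17 and 7 of the 38 genes. Quantile normalization turned Pgam1 in Keap1 null and Gpi1 in WT. Relative to the median of all targets, the members' median was 0.41 in Keap1 null, and 0.72 with quantile normalization. The array median as scale shifts all targets of an array alike, so it cannot change this value and does not test it. In WT the value was -0.38, and its direction flips with quantile normalization, at 0.08. It was -0.61 without WT allograft array 1 and -0.17 over probes well above background on all 8 arrays.

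In the Keap1 null line, 5 of the 16 glycolytic enzymes were higher in allografts (Pfkp, Aldoc, Eno2, Ldha and Gpi1), Pgam1 was lower and 10 were not called. Pfkp had the largest change of the 16, at 0.99 ± 0.10 (SE; limma adjusted p = 0.00039). Its second, dimmer probe was called in neither line, at 0.42 in Keap1 null and -0.11 in WT (limma adjusted p = 0.121 and 0.652). In the WT line 13 of the 16 were lower in allografts, Aldoc and Eno2 were higher, and Pfkm was not called. The falls in WT were -1.50 ± 0.11 for Eno1, -1.39 ± 0.11 for Hk2, -1.32 ± 0.11 for Pgk1 and -1.11 ± 0.11 for Gapdh (SE; limma adjusted p = 9.48e-05, 0.000114, 0.00013 and 0.000328), and these 4 calls held in all 16 alternatives. With quantile normalization the WT enzymes counted 6 lower and 2 higher, and in Keap1 null 8 were higher and 0 lower. With the array median as scale they counted 14 lower and 1 higher in WT, and 13 lower and 0 higher in Keap1 null.

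The other calls are given by pairs of directions, with the enzymes that share them. Slc2a3, Slc16a3, Stc1, Epas1, Pfkfb3 and Ddit4, with Aldoc and Eno2, were higher in allografts of both lines, although at the array median Aldoc, Eno2, Pfkfb3 and Ddit4 turned sign in Keap1 null and Slc16a3, Eno2 and Ddit4 in WT. Epas1 was 27.9-fold higher in Keap1 null allografts than dishes (4.80 ± 0.11 on the log2 scale) and 25.3-fold in WT (4.66 ± 0.11, SE). Its other probe, well above background on 4 of the 8 arrays, did not follow, with 0.62 in Keap1 null and 0.03 in WT (limma adjusted p = 0.535 and 0.978). Stc1 was 30.6-fold higher in Keap1 null allografts (4.94 ± 0.15) and 2.95-fold in WT (1.56 ± 0.15, SE). Bnip3, Ankrd37, Pdk1, P4ha1, Kdm3a, Mxi1 and Hif1a were called higher in the Keap1 null line and were not called in WT, and at the array median Kdm3a, Mxi1 and Hif1a turned sign in Keap1 null. Stc2, Ndrg1, Gpi1, Pfkp and Ldha were higher in allografts of the Keap1 null line and lower in those of the WT line, as with Stc2 at 0.68 ± 0.12 in Keap1 null and -2.82 ± 0.12 in WT (SE), but at the array median the Keap1 null changes of Stc2, Ndrg1, Gpi1 and Ldha turned sign. Egln3 was lower in Keap1 null allografts (-0.40 ± 0.13) and higher in WT allografts (0.69 ± 0.13, SE; -0.33 at the array median). Slc2a1, Egln1 and P4ha2 were not called in Keap1 null and were lower in WT allografts, by -1.27 ± 0.093, -0.65 ± 0.11 and -0.65 ± 0.10 (SE; limma adjusted p = 8.34e-05, 0.00311 and 0.00187). Pfkfb4 was not called in Keap1 null and was higher in WT (0.40 ± 0.10, SE; -0.63 at the array median). Bnip3l and Car9 were called in neither line, although a second probe of Bnip3l was called lower in WT allografts (-0.41, limma adjusted p = 0.0122). Markers of macrophages and endothelium, given below, were also higher in allografts than in dishes of both lines, and their part in these changes was not tested.

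For allograft against dish, the medians over the 38 genes on slides 1 and 2 were 0.46 and 0.42 in Keap1 null. In WT they were -0.31 and -0.52. Leaving out 1 array ended 7 calls in Keap1 null (Gpi1, Ldha, Kdm3a, Mxi1, Hif1a, Pgam1 and Egln3, with Keap1 null allograft arrays 1 and 2, Keap1 null dish arrays 1 and 2 and WT dish array 1 as the arrays concerned) so that 0 genes were lower without Keap1 null allograft array 1 or either Keap1 null array from dishes, and 1 without the first WT array from dishes, and 2 in WT (Slc16a3 without any of 6 of the 8 arrays, with values of 0.41 to 0.67, and Pfkfb4 without WT allograft array 2 or the first WT array from dishes, with 0.33 and 0.35).

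**Figure D4:**
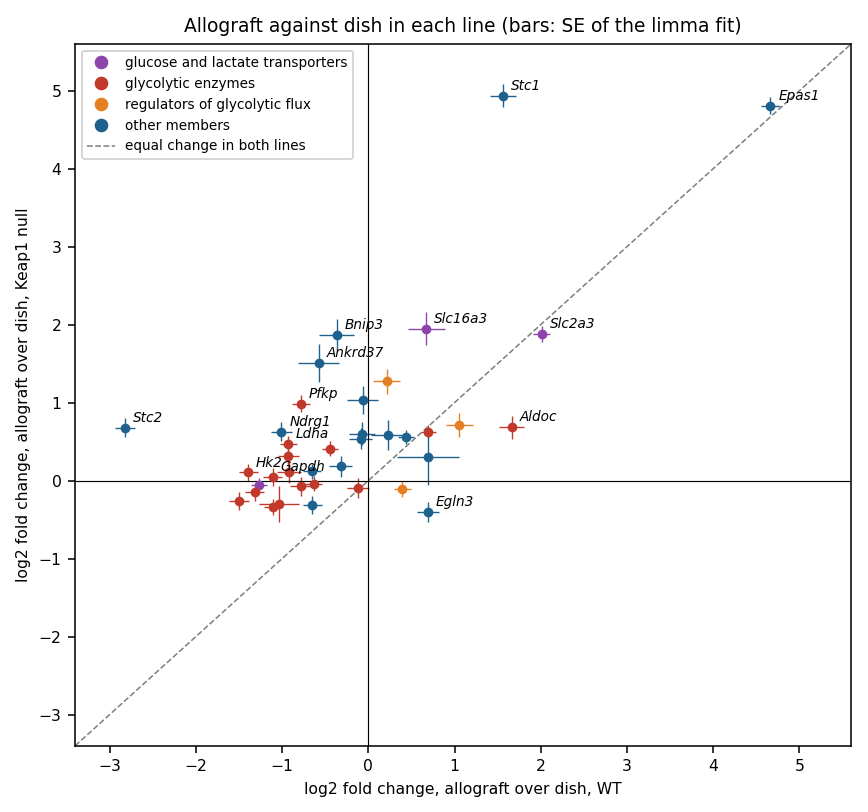
Log2 fold change, allograft over dish, of the 38 genes in the Keap1 null line (vertical axis) and in the WT line (horizontal axis), with the SE of the limma fit as bars, coloured by role; the dashed line marks equal change. Most points lie above the line, and Slc2a3 and Epas1 lie near it; with the array median as scale both axes shift, by -0.87 for Keap1 null and -1.02 for WT, and 17 and 7 of the signs turn.

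The interaction asks whether the effect of genotype differed between allograft and dish, and a positive value means that Keap1 null over WT was larger in allografts. It was positive and called for 22 of the 38 genes, negative for 3 and not called for 13 (limma, adjusted p below 0.05). Among all targets 32.9% were called, 15.8% positive and 17% negative, and the median was 0.77 over the 38 genes and 0.04 over all targets. Of the 16 enzymes 12 were positive, Aldoc was negative, and Pfkl, Pfkm and Eno2 were not called. Stc2 (3.50 ± 0.17), Stc1 (3.38 ± 0.21), Bnip3 (2.24 ± 0.28), Ankrd37 (2.09 ± 0.34) and Pfkp (1.77 ± 0.15, SE) had the largest values. The second probe of Pfkp gave 0.53 and was not called (limma adjusted p = 0.216).

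The wider gap could lie in either setting. Ndrg1 had 1.63 ± 0.17 (SE; limma adjusted p = 0.00122) from a wide gap in dishes and a narrow one in allografts. Aldoa, the main aldolase outside liver and brain, measured 7.67 and 7.93 in Keap1 null allografts against 6.98 and 6.78 in WT allografts, while dishes gave 7.71 and 7.68 for Keap1 null cells against 7.91 and 7.69 for WT cells. The WT allograft arrays alone were low, and its interaction was 1.02 ± 0.20 (SE; limma adjusted p = 0.0113). Pgk1, which makes ATP, measured 6.51 and 6.62 in Keap1 null allografts against 6.15 and 5.93 in WT allografts, while dishes gave 6.69 and 6.74 for Keap1 null cells against 7.39 and 7.32 for WT cells. The lines changed order, with an interaction of 1.17 ± 0.15 (SE; limma adjusted p = 0.00269). Eno1, enolase, measured 2.57 and 2.83 in Keap1 null allografts against 1.79 and 1.69 in WT allografts, while dishes gave 2.96 and 2.98 for Keap1 null cells against 3.24 and 3.24 for WT cells. Its means also changed order, although the dish difference was not called (limma adjusted p = 0.155). The interaction of Eno1 was 1.23 ± 0.16 (SE; limma adjusted p = 0.00263). Egln3, Aldoc and Pfkfb4 were the 3 negative ones, at -1.09 ± 0.18, -0.98 ± 0.20 and -0.51 ± 0.14 (SE). Slc2a3, Eno2 and Epas1, which separated the lines in both settings, had interactions of -0.13 ± 0.14, -0.06 ± 0.12 and 0.14 ± 0.15 (SE), none of them called, and that of Slc2a3 was 0.59 with quantile normalization and 0.53 with normexp.

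The median interaction over the 38 genes was 0.78 on slide 1 and 0.83 on slide 2. The unscaled table gave 9 positive calls in place of 22, and leaving out single arrays of any group ended 8 calls (Slc16a3, Hk1, Aldoc, Tpi1, Pgam1, Pdk1, Pfkfb4 and P4ha1) and left 1 negative call without the first Keap1 null array from dishes, while Hk2, Pfkp, Eno1, Ldha, Bnip3, Ndrg1, Stc1, Stc2, Ankrd37 and Egln3 held in all 16 alternatives.

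Read across the 8 arrays, both Keap1 null allograft arrays exceeded the other 6 for 18 of the 38 genes (47.4%), against 19.3% of all targets with a value on every array. These 18 were Slc2a3, Slc16a3, Gpi1, Pfkp, Eno2, Pkm, Ldha, Pdk1, Pfkfb3, Bnip3, P4ha1, Stc1, Stc2, Ankrd37, Kdm3a, Mxi1, Hif1a and Epas1. They held 5 of the 16 enzymes and 5 of the 7 other hypoxia response genes. Both Keap1 null allograft arrays were below the other 6 for 2 of the 38 (5.26%), the oxygen sensors Egln1 and Egln3, against 16.2% of all targets.

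Markers of other cells differed between the tumours of the 2 lines. Fibroblast markers were present throughout, all 11 well above background in 3 groups and 10 of 11 in WT dishes, where Lum was not. Summed over 12 macrophage markers, the scaled intensity was 20.2 and 20.9 in Keap1 null allografts against 98.3 and 113 in WT allografts, with all 12 above background in both, and 0.156 and 0.183 in Keap1 null dishes against 0.135 and 0.135 in WT dishes. In dishes of each line 3 of the 12 were well above background on both arrays. Fcgr1, C1qc, Aif1, Adgre1, Lyz2, Ptprc and Cd163 were so on no dish array, and C1qa on neither Keap1 null dish array. The endothelial sum over 10 markers was 15.8 and 17.0 in Keap1 null allografts against 21.3 and 19.8 in WT allografts, while dishes gave 2.17 and 1.98 for Keap1 null cells against 3.37 and 2.82 for WT cells, and Pecam1, Tie1, Tek and Emcn were not above background there. The 8 neutrophil markers summed to 3.71 and 4.03 in Keap1 null allografts against 1.97 and 2.24 in WT allografts, where Camp and Ngp were not above background, and the 5 red cell markers to 7.45 and 12.1 against 7.00 and 4.66. The 10 skeletal muscle markers summed to 11.3 and 2.75 in Keap1 null allografts against 4.15 and 1.20 in WT allografts, and the 7 adipocyte markers to 13.0 and 16.3 against 17.8 and 5.44. Macrophage and endothelial sums were lower in Keap1 null allografts and neutrophil sums higher, and the part of these cells in the allograft results was not tested. In tissue RNA, fewer cells of a type and less RNA per cell cannot be told apart.

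**Figure D5:**
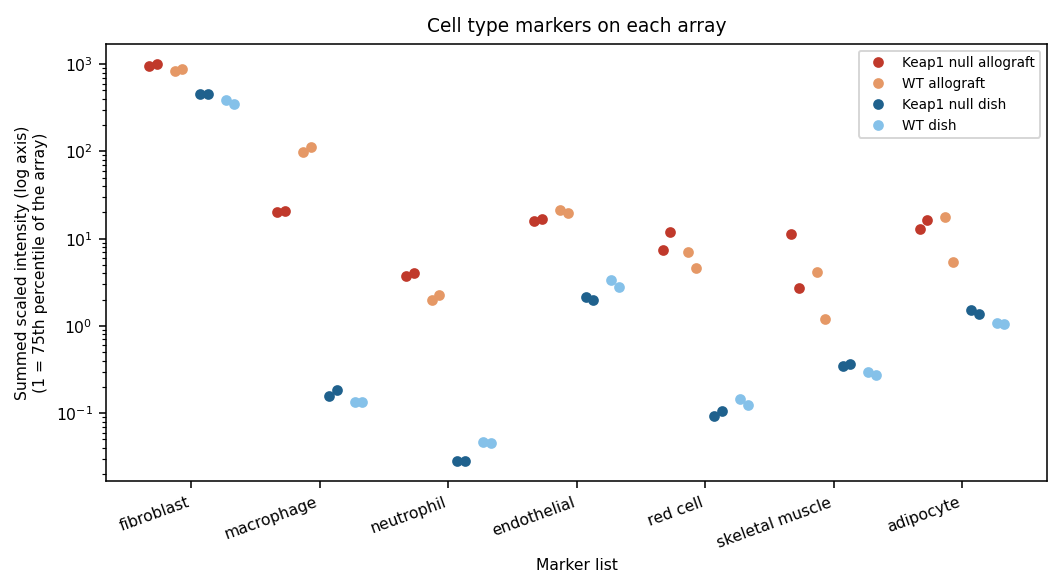
Summed scaled intensity of the markers of 7 cell types on each array, on a log axis where 1 is the 75th percentile of the array, with 1 point per array for Keap1 null allografts, WT allografts, Keap1 null dishes and WT dishes. Macrophage markers reach 20.2 and 20.9 in Keap1 null allografts against 98.3 and 113 in WT allografts, and are at most 0.183 in dishes.

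Other genes of the same pathways were read from 2 further lists. Among all targets, 20.5% were higher and 21.3% lower in Keap1 null allografts. Of 28 other glycolysis genes tested, 9 were higher in Keap1 null allografts, 5 were lower and 14 were not called, with a median of 0.14. Hkdc1, a hexokinase relative, measured 0.73 and 0.60 in Keap1 null allografts and was not well above background in WT allografts, at least 242-fold higher. The next were Fbp2, a gluconeogenic phosphatase (3.22 ± 0.39), Eno3, the muscle enolase (2.84 ± 0.19), and Gbe1, which branches glycogen (2.69 ± 0.11, SE). Of 34 other hypoxia response and HIF pathway genes, 15 were higher, 6 were lower and 13 were not called, with a median of 0.28. The 4 with the largest change were Arnt2, a HIF partner (2.87 ± 0.13), Cited2, which competes with HIF for its coactivators (2.83 ± 0.12), Pgf, placental growth factor (1.99 ± 0.20), and the lysyl oxidase relative Loxl2 (-1.96 ± 0.14, SE).

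Between dishes, 4 of the 28 glycolysis genes were higher in Keap1 null cells and 3 were lower, led by Pdk4 (3.50 ± 0.26), Hkdc1 (2.95 ± 0.16), Ldhb (1.69 ± 0.087) and Eno3 (0.90 ± 0.19, SE). The size for Pdk4 is uncertain, because it was well above background on only 1 of the 2 WT dish arrays. Of the 34 hypoxia genes 6 were higher and 8 lower. The shares of all targets between dishes were 11.4% higher and 9.78% lower. Tmem45a, not well above background in WT dishes, was at least 7.00-fold higher in those of the Keap1 null line. Adm, adrenomedullin, was higher by 1.78 ± 0.23 and Rora by 1.53 ± 0.16 (SE), while Epo, not well above background in Keap1 null dishes, was at least 1.38-fold lower. Rora was well above background on only 1 of the 2 WT dish arrays, so its size is uncertain. In the interaction 9 of the 28 glycolysis genes were positive and 5 negative, and the 4 of largest fitted value were Hkdc1, Fbp2, Pdk4 and Gbe1. Gbe1, well above background on all 8 arrays, had 2.34 ± 0.16 (SE). Hkdc1 (positive) was not well above background in WT allografts and Fbp2 (positive) in neither dish group, and Pdk4 (negative) was so on 1 of the 2 WT dish arrays, so their sizes are not given. Of the 34 hypoxia genes 11 were positive and 4 negative, among them Pgf (3.11 ± 0.28), Cited2 (2.62 ± 0.16) and Ero1a, an oxidase of the endoplasmic reticulum (2.61 ± 0.17, SE). Tmem45a was negative, and its size is not given because it was not well above background in WT dishes. Compared with the 22 of 38 among the genes described above, the shares of positive calls were 9 of 28 and 11 of 34. Among all targets 15.8% were positive and 17% negative. The difference between the lists was not tested.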

How the data were processed

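RNA of 4 groups with 2 arrays each was labelled (500 ng, 1 colour) and hybridised. The deposited intensity values were written by Agilent Feature Extraction 10.7.3.1, which subtracted background and a spatial trend without scaling arrays, per the file headers. The deposited series table holds the same intensities to within 0.496%.

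The log2 processed intensity minus its array's 75th percentile was taken. Control spots and outlier-marked spots were dropped, and spots of a probe were averaged. Of 41174 probes, 30358 passed the filter, which asked for a signal well above background on the 2 arrays of any 1 group. RefSeq accessions gave 26690 probes a symbol from assembly GRCm38.p6, used for names and promoters; the headers name mm9. A gene is its tested probe of highest mean level, giving 22922 targets, 14859 with a symbol and 8063 without. The 38 genes have 59 probes, and 23 have 1.

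One fit of 4 group means (R 4.3.3, limma 3.58.1; 4 residual and 1.83 prior degrees of freedom) gave 5 comparisons, with calls at an adjusted p (Benjamini-Hochberg, over all targets) below 0.05. It was tested on simulated data. The number of arrays limits the precision. For a gene well above background on neither array of its dimmer group the fold is a bound. In this bound each dim array counts with the gene's signal or with the faintest clearly detected probe, whichever is higher.

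Deviations of same-numbered arrays from their group means correlated at 0.246 to 0.43 in all 6 pairs of groups. Replicate 1 arrays share 1 slide and replicate 2 arrays the other, so the replicate block is also the slide block. Alternatives were quantile normalization, the array median as scale, no scaling, normexp (offset 50, on median signals), no filter, a filter on all 8 arrays, the mean of a gene's probes, the replicate block, and leaving out each array.

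The 38 genes and the lists of other genes and markers were chosen with earlier results of these data known. Values on every array are given for genes called in allografts with a log2 change above 1 in size or called in the interaction with such a size, and for some members described beside them. Epas1, Hif1a and Car9 were added after their values were seen. From the other lists, up to 4 called genes of largest change are named. Ero1l was matched as Ero1a. List genes without a matched probe (Pdk2, Lox, Vhl, Cd68, Ly6g, Hbb-b1, Hbb-b2, Hba-a2 and Adrb3) were not used.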

Additional observations from a re-analysis of the deposited data

Results flagged for a closer look

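The effect of genotype differed between allograft and dish for 25 of the 38 genes, by limma's interaction test at an adjusted p below 0.05; each value is the log2 fold change of Keap1 null over WT in allografts minus that in dishes. Among the transporters it was 1.28 for Slc16a3 and 1.22 for Slc2a1. Among the glycolytic enzymes it was 1.77 for Pfkp, 1.497 for Hk2, 1.39 for Ldha, 1.24 for Pkm, 1.23 for Eno1, 1.17 for Pgk1, 1.16 for Gapdh, 1.02 for Aldoa, 0.85 for Gpi1, 0.76 for Pgam1, 0.71 for Tpi1, 0.60 for Hk1 and -0.98 for Aldoc. The flux regulators had 1.06 for Pdk1 and -0.51 for Pfkfb4. The mitophagy receptor Bnip3 had 2.24, and the oxygen sensor Egln3 had -1.09. The collagen prolyl hydroxylases had 1.10 for P4ha1 and 0.77 for P4ha2. The other hypoxia response genes had 3.50 for Stc2, 3.38 for Stc1, 2.09 for Ankrd37 and 1.63 for Ndrg1.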

How the results depend on the processing

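Of 190 values (38 genes in 5 comparisons), the direction and the side of the threshold held for 165 with quantile normalization, 136 at the array median, 146 with no scaling, 178 with normexp, 180 with no filter on dim probes, 186 with probes well above background on all 8 arrays, 182 with the mean of a gene's probes and 183 with the replicate block, which added 7 calls (among them Hif1a in allografts, adjusted p = 0.0322) and ended none. At the array median, the change in allograft over dish turned sign in Keap1 null for Hk2 (-0.76), Gpi1 (-0.46), Aldoa (-0.76), Aldoc (-0.18), Gapdh (-0.82), Eno2 (-0.24), Pkm (-0.56), Ldha (-0.40), Pfkfb3 (-0.15), Bnip3l (-0.68), Ddit4 (-0.31), P4ha2 (-0.75), Ndrg1 (-0.24), Stc2 (-0.19), Kdm3a (-0.33), Mxi1 (-0.26) and Hif1a (-0.28), and in WT for Slc16a3 (-0.35), Eno2 (-0.33), Pdk1 (-0.81), Pfkfb4 (-0.63), Ddit4 (-0.59), Egln3 (-0.33) and Hif1a (-0.80). This scale shifts all targets by -0.87 in Keap1 null and -1.02 in WT. Quantile normalization turned Pgam1 in Keap1 null (0.026), Gpi1 in WT (0.27) and the interaction of Slc2a3 (0.59), which normexp also turned (0.53); the cause was not tested. Genes higher in Keap1 null allografts numbered 16 with no scaling. In dishes 2620 targets were called with no scaling and 2830 with normexp, 3 genes were higher at the array median and 1 was lower with no scaling. Between allograft and dish, Keap1 null gave 6 higher and 19 lower at the array median, 1 lower with quantile normalization or normexp and 0 lower with no scaling or no filter. WT gave 4 higher and 29 lower at the array median, 10 lower with quantile normalization and 11 with no scaling. The interaction gave 9 positive with no scaling and 1 negative at the array median. Leaving out 1 array gave 7100 to 9330 called targets, 20 to 25 genes higher and 1 to 3 lower between allografts, and 2311 to 4391 targets, 3 to 5 higher and 1 to 7 lower between dishes. It gave 12295 to 14606 targets, 16 to 20 higher and 0 to 3 lower for growth in Keap1 null, 13923 to 15643 targets, 9 higher and 18 to 20 lower for growth in WT, and 5161 to 6715 targets, 17 to 23 positive and 1 to 3 negative for the interaction. Both the number of arrays and the choice of scale limit these counts.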

Other observations

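Between allograft and dish, the other glycolysis list held calls in both directions. In the Keap1 null line 10 of its 28 genes were higher in allografts and 10 lower, with a median log2 change of -0.11. Among all targets 35.8% were higher and 29.1% lower in that line. In the WT line 8 of the 28 were higher and 13 lower, with a median of -0.48, against 35.8% and 32.2% of all targets. Fbp1, the gluconeogenic phosphatase of liver and kidney, was at least 27.0-fold higher in Keap1 null allografts and at least 44.3-fold in WT allografts, being not well above background in dishes. Hk3, a hexokinase of blood cells, was higher by 3.31 ± 0.13 in Keap1 null and by 4.81 ± 0.13 in WT (SE). Hkdc1 was higher in allografts of the Keap1 null line (3.52 ± 0.16, SE), whereas in WT allografts it was not well above background and at least 2.74-fold lower than in dishes. Fbp2, not well above background in Keap1 null dishes, was at least 9.09-fold higher in Keap1 null allografts. In the WT line Pdk4, a pyruvate dehydrogenase kinase, was higher by 2.78 ± 0.26 and Slc2a4, the insulin-regulated glucose transporter, by 2.21 ± 0.21 (SE). Pdk4 was well above background on only 1 of the 2 WT dish arrays, so its size is uncertain.

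Of 34 other hypoxia response and HIF pathway genes, 19 were higher and 5 lower in allografts of the Keap1 null line, with a median of 0.55. In those of the WT line 14 were higher and 10 lower, with a median of -0.23. The shares of all targets were 35.8% higher and 29.1% lower in Keap1 null, and 35.8% and 32.2% in WT. Tmem45a was higher by 3.99 ± 0.14 in Keap1 null (SE) and at least 75.4-fold in WT. Rora, a nuclear receptor, was higher by 3.77 ± 0.16 in Keap1 null and by 3.70 ± 0.16 in WT (SE). It was well above background on only 1 of the 2 WT dish arrays, so the size of its WT change is uncertain. Ppp1r3c, a glycogen-targeting subunit of protein phosphatase 1, was at least 2.57-fold higher in Keap1 null allografts and at least 4.11-fold in WT allografts. Gpr35 was at least 4.93-fold higher in Keap1 null allografts, and Ppfia4 was higher by 4.05 ± 0.22 in WT allografts (SE). Host cells are part of the allograft RNA, and their part in these changes was not tested.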
